A study of Mus musculus with 6 samples.

Results

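Mouse osteocalcin is encoded by 3 genes that lie side by side, Bglap, Bglap2 and Bglap3, and the description here covers these 3 genes of the 26187 listed in each of 6 RNA-Seq libraries. They were taken by gene name, without a cutoff on their values, but with earlier results of these data known. All libraries were made from MC3T3-E1, a pre-osteoblast line derived from mouse calvaria that can be driven to lay down mineralized matrix. In 3 libraries the cells had been exposed for 2 days to 30 μg/mL of PAKG–8diol–PEG(S) MPs (PAKG), and in the other 3 the cells had received no MPs over the same time (OC). PAKG is a polyester of α-ketoglutarate, an intermediate of the citric acid cycle, joined by a diol, and these MPs were the small microparticles of the form with an 8-carbon diol and polyethylene glycol. Both groups were kept in osteogenic medium with serum, β-glycerophosphate and ascorbic acid-2-phosphate, for which the labels give 10 (read here as mM) and 50 mg/mL. The study's methods state other concentrations for this medium, and the difference was not resolved. The comparison asks which genes the MPs changed beyond what osteogenic medium alone gave. The cells are 1 established line. The study's methods describe replicate wells for cell experiments in general, but do not say for RNA-Seq whether the libraries of a group came from separate wells or cultures. The spread against which each p-value is set is thus that between libraries, and it may be technical.

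Osteocalcin is a small protein that osteoblasts secrete into bone matrix late in their differentiation. Glutamate residues of the protein are carboxylated with vitamin K as a cofactor, which lets it bind calcium in hydroxyapatite, and a less carboxylated form circulates as a hormone in mice. In mice Bglap and Bglap2 are the copies of bone, whereas Bglap3, also called osteocalcin-related gene, is known mainly from kidney and other tissues outside bone.

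The 3 copies lie on the minus strand of chromosome 3 (GRCm38), within 15849 bases. Bglap3 (ENSMUSG00000074489) is at chr3:88368616-88372743, Bglap2 (ENSMUSG00000074486) at chr3:88377736-88378699, and Bglap (ENSMUSG00000074483) at chr3:88383501-88384464. Bglap3 and Bglap2 are 4992 bases apart, and Bglap2 and Bglap are 4801 bases apart. For each copy the shortest coding transcript of the GENCODE M21 annotation was taken, with 4 exons and a coding length of 288 bases. These transcripts differ in their 5′ UTR, with 18 bases in Bglap, 49 in Bglap2 and 295 in Bglap3. They are thus 440, 471 and 717 bases long. That of Bglap starts at base 88384433, whereas the annotated gene reaches 88384464, so the 5′ UTR and length of Bglap depend on this choice. The 3′ UTR has 134 bases in each. GENCODE lists 2 transcripts for Bglap, 1 for Bglap2 and 5 for Bglap3.

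The coding sequences are shown because the division of reads among the copies rests on their few differences. Capitals mark the 13 positions at which the copies are not all alike, and the other 275 positions are the same in all 3. The coding exons span chr3:88383635-88384415 for Bglap, chr3:88377870-88378650 for Bglap2 and chr3:88368756-88369536 for Bglap3, and each sequence is given 5′ to 3′ along the coding strand without its introns.
Bglap coding sequence: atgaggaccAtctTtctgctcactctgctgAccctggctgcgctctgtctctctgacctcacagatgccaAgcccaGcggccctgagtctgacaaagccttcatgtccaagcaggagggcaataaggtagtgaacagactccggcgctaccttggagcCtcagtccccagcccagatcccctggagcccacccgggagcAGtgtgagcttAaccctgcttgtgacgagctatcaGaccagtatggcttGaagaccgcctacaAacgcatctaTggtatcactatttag
Bglap2 coding sequence: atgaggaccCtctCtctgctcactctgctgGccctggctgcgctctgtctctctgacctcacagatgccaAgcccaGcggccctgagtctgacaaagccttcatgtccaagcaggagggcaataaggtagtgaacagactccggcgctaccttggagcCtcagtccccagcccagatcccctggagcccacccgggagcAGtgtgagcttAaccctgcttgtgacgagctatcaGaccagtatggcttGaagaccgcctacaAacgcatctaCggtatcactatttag
Bglap3 coding sequence: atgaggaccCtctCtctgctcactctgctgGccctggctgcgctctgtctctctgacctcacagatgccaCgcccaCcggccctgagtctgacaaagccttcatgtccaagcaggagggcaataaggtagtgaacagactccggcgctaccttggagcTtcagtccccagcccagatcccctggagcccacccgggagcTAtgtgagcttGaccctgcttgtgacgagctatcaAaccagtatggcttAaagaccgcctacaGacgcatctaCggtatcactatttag
Counted from 1 at the start codon's A, Bglap and Bglap2 differ by 4 substitutions (Bglap base first), A10C, T14C, A31G and T273C. This is an identity of 98.61%, with an identical run of 241 bases between the last pair of these. Bglap and Bglap3 differ at 13 positions (95.49%), and Bglap2 and Bglap3 at 9 (96.88%). Bglap stands alone at 4 of the 13 positions, Bglap3 stands alone at 9, and Bglap2 has no base of its own.

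Stretches of this kind cannot be given to 1 copy by sequence alone. Of all 100-base windows of the Bglap transcript, 56.3% were also found in Bglap2 and 0% in Bglap3. Of those of Bglap2, 57.0% were found in another copy, and of those of Bglap3, 3.24%. With 50-base windows the shares were 74.7% for Bglap, 88.2% for Bglap2 and 24.0% for Bglap3, and with 150-base windows 31.6%, 28.6% and 0%. The read length was not given in the sources used here. Among 141767 annotated transcripts, none outside the 3 copies held a 50-base window of any copy (0 matches), so that reads are shared within the cluster rather than with genes elsewhere. The values of single copies are therefore uncertain, that of Bglap3 less by sharing than by its low level, and the sum over the copies is less so.

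The expression unit is FPKM, the number of fragments scaled to transcript length and to the mapped fragments of the library, deposited with 2 decimals. Bglap rose from 0.853 ± 0.176 FPKM in OC to 19.4 ± 1.63 FPKM in PAKG (SD, n = 3 each), and Bglap2 from 1.76 ± 0.422 to 28.4 ± 2.83 FPKM. Among 12590 genes tested these were the largest and the second largest rise on the log2 scale. Bglap3 stayed under 0.5 FPKM in all 6 libraries and was not called different. As the libraries are bulk RNA, more cells that express osteocalcin and more osteocalcin RNA per cell cannot be told apart.

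Bglap was at 1.02, 0.87 and 0.67 FPKM in OC 1, 2 and 3, and at 20.33, 17.47 and 20.25 FPKM in PAKG 1, 2 and 3. The groups did not overlap, and the lowest PAKG library was 17.1 times the highest OC library. The ratio of the means was 22.7. On the log2(FPKM + 0.1) scale the difference was 4.36 (SE 0.14, 95% interval 4.03 to 4.70), with a limma adjusted p of 1.89e-05. Its unadjusted p, 3.89e-09, ranked first among the genes tested, and its adjusted p was shared with Phospho1, Panx3 and Col2a1.

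Bglap2 was at 2.13, 1.85 and 1.30 FPKM in OC and at 28.84, 25.33 and 30.92 FPKM in PAKG. Every PAKG library was again above every OC library, here by at least 11.9 times. The ratio of the means was 16.1, and the difference on the log2 scale was 3.96 (SE 0.17, 95% interval 3.56 to 4.35; limma adjusted p = 4.26e-05). Both copies were called, which asks for an adjusted p below 0.05 together with a change of 2-fold or more. Of the tested genes 0.866% were called higher, 0.58% lower and 1.45% in either direction.

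Bglap3 was listed at 0.02 FPKM in all 3 OC libraries and at 0.11, 0.07 and 0.22 FPKM in PAKG. The PAKG values all lay above the OC values, as they did for 13.7% of the tested genes (for 19.6% they all lay below). With a mean of 0.077 FPKM over the 6 libraries the gene fell under the filter of 0.5 FPKM, and in a fit without filter its difference on the log2(FPKM + 0.1) scale was 0.91 (SE 0.25, 95% interval 0.31 to 1.51; limma adjusted p = 0.106). At the depth estimated for these libraries, 1 fragment on its coding transcript is worth 0.037 to 0.0434 FPKM in OC, above the 0.02 FPKM listed there. The PAKG values come to about 3.3, 1.7 and 5.2 fragments. The difference in Bglap3 thus rests on a few fragments per PAKG library and on OC values below 1 fragment, and no ratio of means is given for it.

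**Figure D1:**
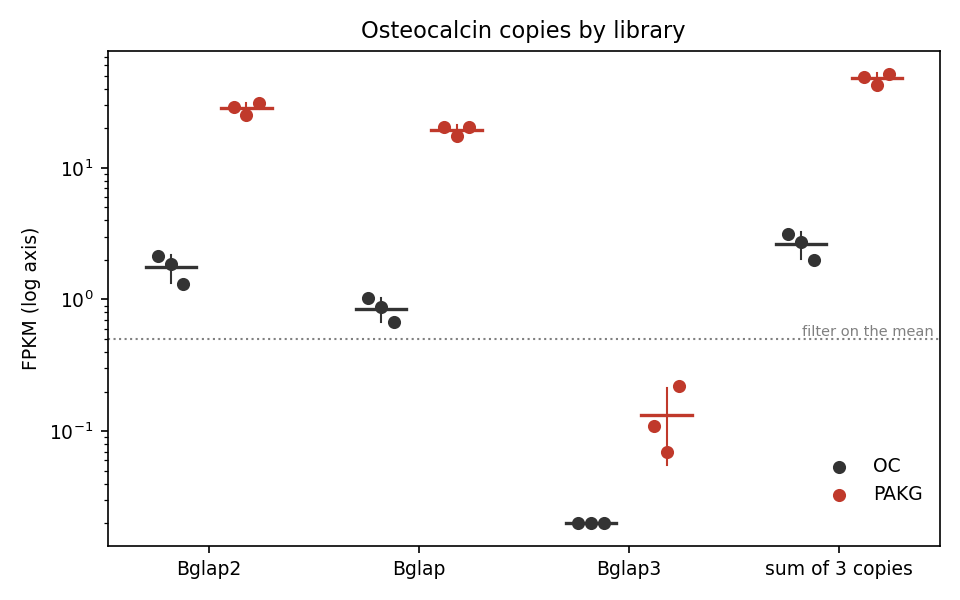
FPKM of Bglap2, Bglap, Bglap3 and their sum on a log axis, with 1 point for each library (OC grey, PAKG red), a bar at the group mean and a line of 1 SD each way. The PAKG libraries are far above the OC libraries for Bglap and Bglap2, while Bglap3 lies under the dotted line at 0.5 FPKM, the filter on the mean, in all 6.

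Summed over the copies, osteocalcin was at 3.17, 2.74 and 1.99 FPKM in OC and at 49.28, 42.87 and 51.39 FPKM in PAKG. The sum does not depend on how shared fragments were divided, apart from the lengths used, and again the groups did not overlap. It rose from 2.63 ± 0.597 to 47.8 ± 4.44 FPKM (SD, n = 3 each), a ratio of 18.2. With the sum in place of the single copies, the log2 difference was 4.15 (SE 0.16, 95% interval 3.78 to 4.53; limma adjusted p = 3.71e-05), where 0.858% of genes were called higher. The 2-sided exact permutation test over the 6 libraries gave p = 0.1, the smallest that 3 against 3 libraries can give.

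The relative spread among libraries was wider in OC, where the coefficient of variation was 20.6% for Bglap and 24.0% for Bglap2, than in PAKG, with 8.42% and 9.96%. OC 3 was the lowest and OC 1 the highest OC library for both, and PAKG 2 was the lowest PAKG library for both and for Bglap3. The OC values rest on few fragments. By the estimated depth, Bglap had about 14.4, 14.4 and 10.9 fragments in the OC libraries and 374.3, 264.2 and 294.1 in the PAKG libraries. Bglap2 had about 32.3, 32.9 and 22.7 in OC and 568.4, 410.0 and 480.6 in PAKG.

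Placed among the genes tested, the copies moved from the low end to the upper part of the range. In OC, Bglap was higher than 4.6% to 10.4% of tested genes and Bglap2 higher than 14.2% to 22.7%. In PAKG these shares were 78.2% to 80.4% and 85.5% to 87.4%. The sum stood above 21.8% to 31.2% of the genes in OC and above 92.1% to 93.0% in PAKG. The 3 next largest rises were 3.63 for H2ac18, a histone gene whose 95% interval ran from -0.13 to 7.39, 3.48 for Tmod1, a cap of actin filaments, and 2.67 for Phospho1, a phosphatase of matrix vesicles. The lower bound for Bglap, 4.03, lay above the upper bound for Tmod1, 3.81, whereas that for Bglap2, 3.56, did not.

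**Figure D2:**
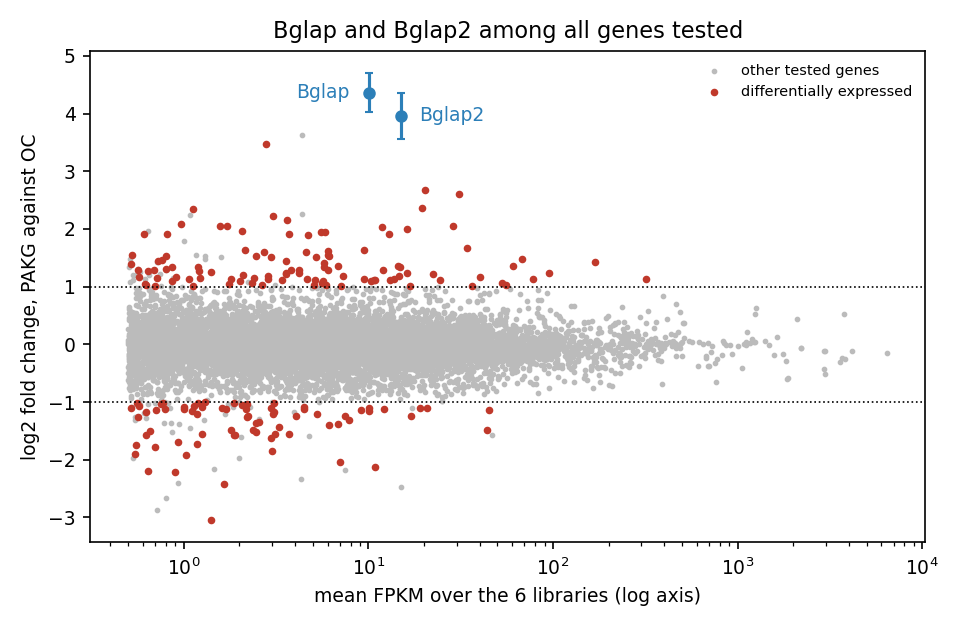
Log2 fold change of PAKG against OC for each gene tested, by its mean FPKM over the 6 libraries (log axis), with genes called differentially expressed in red, Bglap and Bglap2 in blue with 95% intervals, and dotted lines at a fold change of 2. Bglap, at 4.36, and Bglap2, at 3.96, lie above all other genes.

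The copies did not keep quite the same proportions. Bglap2 was the higher copy in each of the 6 libraries, Bglap the next and Bglap3 the lowest, with no overlap between neighbours in this order within either group. Bglap made up 31.8% to 33.7% of the summed FPKM in OC (32.5% ± 1.01, SD, n = 3) and 39.4% to 41.3% in PAKG (40.5% ± 0.956). The share of Bglap2 was 66.7% ± 1.18 in OC and 59.3% ± 0.836 in PAKG, and that of Bglap3 was 0.789% ± 0.194 and 0.272% ± 0.139. The differences were 7.94 percentage points for Bglap, -7.42 for Bglap2 and -0.52 for Bglap3. In all 3 the groups did not overlap, and the exact permutation p was 0.1 (adjusted over the 3 copies 0.1), the smallest possible. The shares of a library add to 100%, so these are not 3 separate results. Bglap3 was listed at 0.02 FPKM, below 1 fragment, in every OC library, so its OC share varied only through the sum. Its lower share in PAKG came with higher FPKM of its own, 0.11, 0.07 and 0.22. The ratio of Bglap2 to Bglap was 2.088, 2.126 and 1.940 in OC and 1.419, 1.450 and 1.527 in PAKG. Because the OC shares rest on an estimated 34.1 to 47.9 fragments per library over all copies, and the division used shared sequence, whether the transcripts themselves changed in proportion was not tested.

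**Figure D3:**
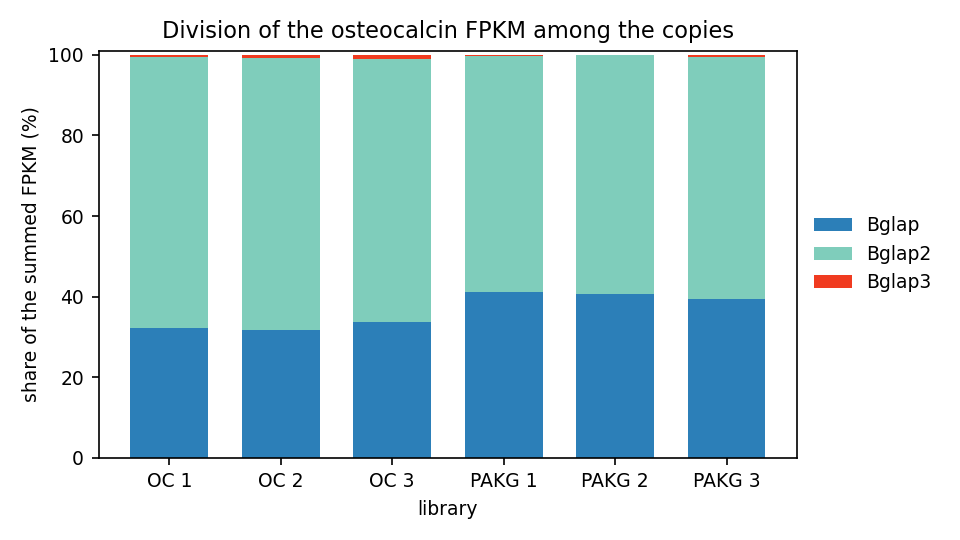
Stacked bars of the share of each copy in the summed osteocalcin FPKM, in percent, for each library. Bglap takes 31.8% to 33.7% in OC and 39.4% to 41.3% in PAKG, Bglap2 takes nearly all of the rest, and Bglap3 at most 1.01%.

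The sequence before the transcription start is shown for Bglap and Bglap3, which sit in the same cluster but were at very different levels. Whether this sequence bears on their levels was not tested. RefSeq promoters (GRCm38.p6) were held for these 2 of the 3 copies, and Bglap2 was not matched. That of Bglap is at chr3:88384467-88384716 on the minus strand. For Bglap3, 3 starts are listed, and the one nearest to the coding exons is shown, at chr3:88369832-88370081 on the minus strand. Capitals mark matches, on either strand, to 5 motifs that do not overlap each other here. They are ACCACA, the core bound by RUNX factors, TTACATCA, the core of the element bound by ATF4, CACATG, an E box, CCAAT, the CCAAT box, and TATAAA, the TATA box.
Bglap, 250 bases before the start: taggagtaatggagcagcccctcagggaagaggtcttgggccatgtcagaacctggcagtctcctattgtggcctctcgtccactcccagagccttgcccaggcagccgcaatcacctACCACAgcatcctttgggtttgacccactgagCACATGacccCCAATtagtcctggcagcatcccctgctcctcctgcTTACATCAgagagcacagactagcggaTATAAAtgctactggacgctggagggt
Bglap3, 250 bases before the start: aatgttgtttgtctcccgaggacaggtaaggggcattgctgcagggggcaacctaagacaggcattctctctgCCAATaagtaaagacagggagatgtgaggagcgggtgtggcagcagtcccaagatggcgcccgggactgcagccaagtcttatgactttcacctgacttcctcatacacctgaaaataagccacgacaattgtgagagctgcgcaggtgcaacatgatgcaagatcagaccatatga
The Bglap window held all 5 motifs, with ACCACA beginning 132 bases, CACATG 100, CCAAT 90, TTACATCA 54 and TATAAA 27 bases before the start. Of these 5 exact strings, the Bglap3 window shown held CCAAT alone, beginning 177 bases before the start. The other Bglap3 starts also held none of them but CCAAT. Variant forms were not searched and are not marked. The Bglap3 window shown holds CACCTG and CAGGTG, which have the general E box form CANNTG (N, any base). Another Bglap3 start holds TATATAAG, a sequence close to the TATA box. Among 32851 promoters in the table, ACCACA was found in 14.1%, TTACATCA in 0.96%, CACATG in 12.3%, CCAAT in 33.9% and TATAAA in 12.4%, and all 5 together in 1, that of Bglap. The motifs were picked because they are described for mouse osteocalcin promoters, so this last count is a description of that choice. A match of letters is not a bound site, and nothing about a factor follows from a missing match.

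The genes beside the cluster were compared next. The 5 protein-coding neighbours on each side were taken from the annotation, and 7 of these 10 passed the filter, of which 0 had a limma adjusted p below 0.05. An unadjusted p below 0.05 was found for 2 of the 7, Glmp and Pmf1, and for 28.8% of all genes tested. With 1.45% of all genes called, 0 calls among 7 is near the background and says nothing particular about the neighbours. Paqr6, which ends 74 bases from Bglap3, was under the filter, as were Tmem79 and Sema4a. On the other side Pmf1, a kinetochore gene whose nearer end lies 9678 bases from Bglap, was at 10.5, 9.18 and 9.78 FPKM in OC and 9.08, 6.55 and 7.66 FPKM in PAKG. Its groups did not overlap, and neither did those of Glmp, Smg5 and Cct3. Over all genes tested, every PAKG library was above every OC library for 13.7% and below for 19.6%. The log2 difference of Pmf1 was -0.35 (limma adjusted p = 0.109). The other tested neighbours were Glmp with 0.25 (adjusted p = 0.101), Smg5 with -0.16, Cct3 with -0.12, Slc25a44 with -0.06, Lmna with 0.02 and Mex3a with 0.001. Their median was -0.06, against -0.03 over all genes tested, and the log2 differences of Bglap and Bglap2 were 4.36 and 3.96.

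**Figure D4:**
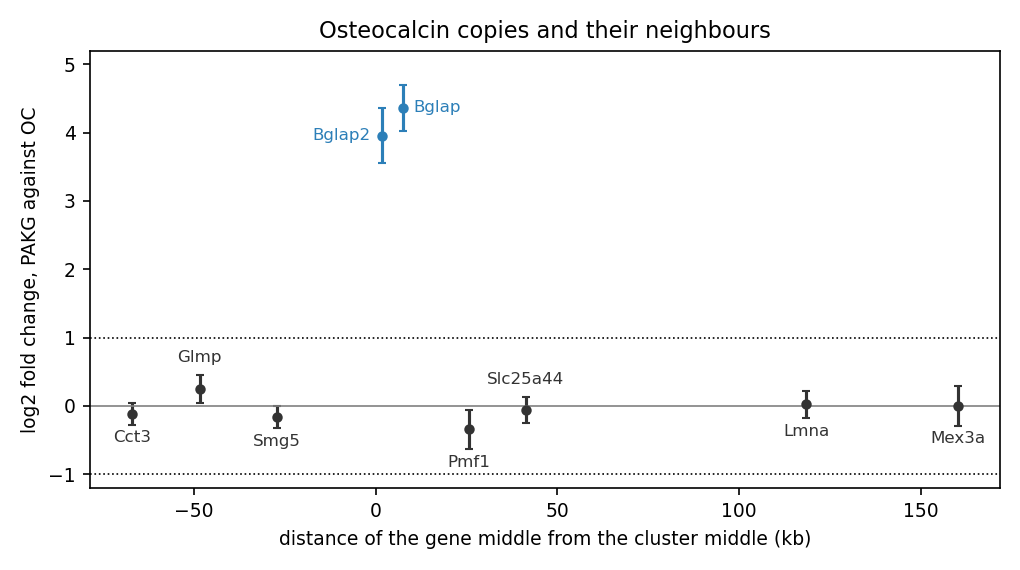
Log2 fold change of PAKG against OC with 95% intervals for Bglap and Bglap2 (blue) and the 7 tested neighbours (grey), by the distance in kb of each gene's middle from the middle of the cluster. The neighbours lie between -0.35 and 0.25, within the dotted lines at a fold change of 2, and Bglap and Bglap2 lie at 4.36 and 3.96.

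Of a list of transcription factors and cofactors linked to the osteocalcin promoter, Sp7 and Tcf7 were called higher. The list held 43, of which 37 were tested, and limma called 2 higher and 0 lower (5.41% against 0.866% of all genes), with a median log2 difference of 0.12. Sp7 (osterix), which osteoblasts need to form, was at 35.16, 34.02 and 33.06 FPKM in OC and 90.90, 84.17 and 86.58 FPKM in PAKG, a difference of 1.35 (limma adjusted p = 7.83e-05). Tcf7, a factor of Wnt signaling, was at 2.69, 4.67 and 2.20 FPKM in OC and 8.02, 9.98 and 9.05 FPKM in PAKG, a difference of 1.54 (adjusted p = 0.00682). In both genes the groups were apart. By the adjusted p alone, without the fold threshold, 9 of the 37 were higher and 2 lower, against 5.97% and 8.73% of all genes. This list was written with earlier results of these data known, so its shares partly describe that choice. The higher ones included Dlx5, a homeodomain factor of osteoblasts, with 0.86 (adjusted p = 0.00154), Runx2, the factor that commits cells to the osteoblast lineage, with 0.79 (adjusted p = 0.00123), and Ctnnb1 (β-catenin) with 0.38 (adjusted p = 0.0186). Vdr, the vitamin D receptor, was lower by this rule with -0.45 (adjusted p = 0.0354). Of the other abundant ones, Atf4 gave -0.04, Cbfb, the partner of RUNX factors, -0.11, Twist1, an inhibitor of RUNX2, -0.20, and Hdac3, a histone deacetylase, -0.13, and these did not pass the test. Runx2 and Vdr were named in addition to the rule for named genes, after their values were seen.

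Genes whose products modify, process or receive osteocalcin formed another list, together with genes of other proteins that are carboxylated with vitamin K. Of 22 listed, 16 were tested, and limma called 0 in either direction, where 1.45% of all genes were called, so that 0 is near the background. An unadjusted p below 0.05 was found for 7 of the 16, against 28.8% of all genes. By the adjusted p alone 4 were higher and 1 lower, against 5.97% and 8.73% of all genes, and the median log2 difference was 0.05. The higher ones were Vkorc1, Gas6, Furin and Pcsk6, and the lower one was Pros1. The proprotein convertases Furin and Pcsk6 gave 0.38 (limma adjusted p = 0.0498) and 0.55 (adjusted p = 0.0218). Vkorc1, which recycles vitamin K for the carboxylation, was at 53.25, 37.86 and 44.21 FPKM in OC and 76.15, 56.37 and 71.07 FPKM in PAKG, a difference of 0.59 (limma adjusted p = 0.0402). The groups were apart, with the lowest PAKG library close above the highest OC library. Ggcx, the carboxylase itself, was at 20.9 ± 2.12 FPKM in OC and 24.2 ± 1.79 FPKM in PAKG, a difference of 0.21 (adjusted p = 0.193) that did not pass the test. Other proteins carrying the same modification gave 0.32 for Gas6 (adjusted p = 0.0240), -0.31 for Pros1 (adjusted p = 0.0174) and 0.09 for Mgp, an inhibitor of calcification (adjusted p = 0.655). Calu, an inhibitor of the carboxylation system, gave -0.08 and Lrp1, an endocytic receptor, -0.01. Gpr158, a receptor described for osteocalcin in mouse brain, was listed at or below 0.01 FPKM in all 6 libraries. Gprc6a, also listed, was not found among the gene names. Ggcx, Gpr158, Furin and Pcsk6 were also named after their values were seen.

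Genes of the mature osteoblast matrix and of mineralization held 9 calls in the same direction as osteocalcin. Of 38 listed, 28 were tested, and limma called 9 higher and 0 lower, which is 32.1% against 0.866% of all genes, with a median log2 difference of 0.52. They were Phospho1 (2.67), which frees phosphate in matrix vesicles, Panx3 (2.60), a channel protein, Smpd3 (2.00), a sphingomyelinase needed for mineralization, Omd (1.68) and Ogn (1.13), matrix proteoglycans, Alpl (1.61), the alkaline phosphatase, Bambi (1.28), a decoy receptor, Pth1r (1.24), the receptor of parathyroid hormone, and Tnfrsf11b (1.11), which inhibits osteoclast formation. Their limma adjusted p lay between 1.89e-05 and 0.00182. Bambi was named here to complete this count. By the adjusted p alone 16 of the 28 were higher and 3 lower, against 5.97% and 8.73% of all genes. As the list was written with earlier results of these data known, these shares partly describe that choice. The 3 lower were Gja1 (connexin 43), a gap junction protein, with -0.61 (adjusted p = 0.00315), Pdpn (podoplanin), a membrane glycoprotein of early osteocytes, with -0.59 (adjusted p = 0.00134), and Spp1, given next. Gja1 and Pdpn were named after their values were seen.

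Of the other matrix genes, the 6 with the highest mean stayed under the fold threshold. Col1a1, a chain of type I collagen, was at 2858.97, 3539.19 and 2905.23 FPKM in OC and 4286.30, 4696.96 and 4307.89 FPKM in PAKG, a log2 difference of 0.52 (adjusted p = 0.0296). Sparc (osteonectin) gave 0.63 (adjusted p = 0.00300) and Ibsp (bone sialoprotein) 0.49 (adjusted p = 0.00313). Spp1 (osteopontin) was at 285.27, 241.94 and 287.68 FPKM in OC and 208.43, 173.22 and 194.85 FPKM in PAKG, the opposite direction, with -0.50 (adjusted p = 0.0186). Col1a2 gave 0.43 (adjusted p = 0.0531) and Postn (periostin) -0.20 (adjusted p = 0.124). Even in PAKG the summed osteocalcin copies, with 42.87 to 51.39 FPKM, were below every library of Ibsp, which ranged from 87.26 to 130.39 FPKM. Osteocyte markers were near 0 in both groups, with Dmp1, Mepe and Phex summing to 0.3 to 0.64 FPKM in OC and 0.7 to 0.77 in PAKG. All were under the filter. Phex was at 0.12, 0.14 and 0.18 FPKM in OC and 0.40, 0.47 and 0.41 FPKM in PAKG. The means of Dmp1 (0.253 in OC, 0.237 in PAKG) and Mepe (0.077 and 0.063) were not higher in PAKG.

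**Figure D5:**
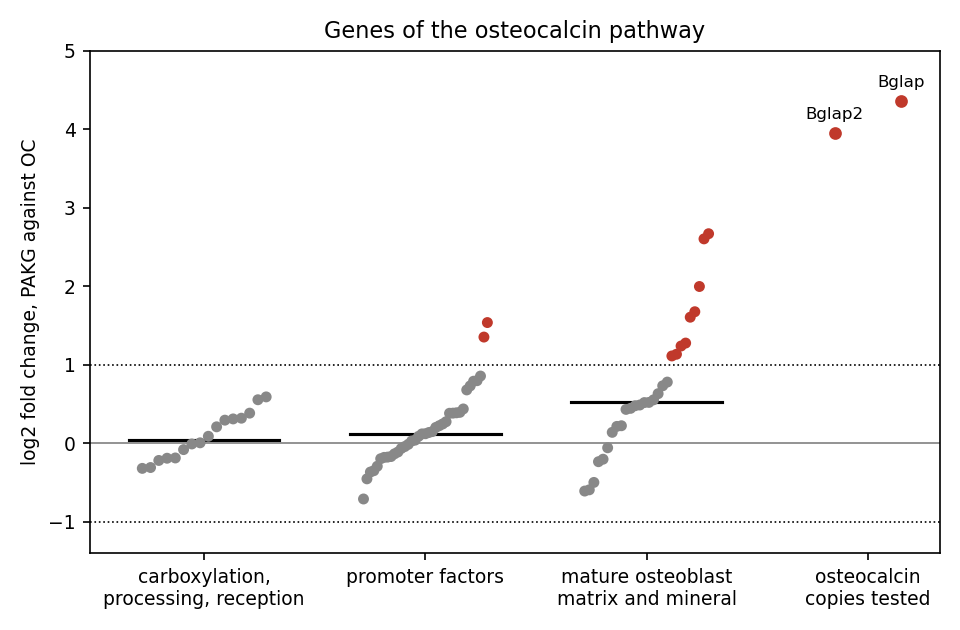
Log2 fold change of PAKG against OC for the tested genes of 3 lists and for Bglap2 and Bglap, each point 1 gene in rising order, red where called, with a bar at each list's median and dotted lines at a fold change of 2. Medians are 0.05, 0.12 and 0.52, and 0, 2 and 9 genes are called.

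Other cell types were checked by markers. All 13 pre-osteoblast and osteoblast markers were tested. They summed to 5463.78 to 6508.64 FPKM in OC and 7490.93 to 8240.25 FPKM in PAKG, mostly through Col1a1 and Col1a2. Of these markers 2 were called higher and 0 lower (15.4% higher against 0.866% of all genes). By the adjusted p alone 7 were higher and 2 lower, against 5.97% and 8.73% of all genes. The lower ones were Spp1 and Prrx1 (-0.28, limma adjusted p = 0.0374), the latter named after its values were seen. Chondrocyte markers also moved with the group. They summed to 19.16 to 21.36 FPKM in OC and 60.77 to 63.55 FPKM in PAKG, mostly through Col2a1 (type II collagen), with a log2 difference of 2.05. Col2a1 was the 1 called of 4 tested and of 6 analysed. By the adjusted p alone 4 of these 4 were higher and 0 lower, against 5.97% and 8.73% of all genes. Comp gave 0.96 (limma adjusted p = 0.0377) and Matn3 0.65 (adjusted p = 0.0344). Col10a1 was under 0.05 FPKM on average in both groups. Matn1 was at 0 in all OC libraries and at 0.02, 0.03 and 0.09 FPKM in PAKG. Sox9 of this list, with 0.80 (adjusted p = 0.00103), is also among the promoter factors above. The part of these markers in the rise of osteocalcin was not tested. Macrophage markers summed to 13.1 to 17.4 FPKM in OC and 19.9 to 22.1 FPKM in PAKG, mostly through Lyz2 (0.64, limma adjusted p = 0.0120). Of 3 tested, 0 were called, and by the adjusted p alone 1 was higher and 0 lower. Csf1r, under the filter, was at 0.09, 0.06 and 0.12 FPKM in OC and 0.29, 0.22 and 0.28 FPKM in PAKG. Ptprc was at 0.01 FPKM or less in all 6 libraries. Adipocyte markers summed to 1.49 to 3.71 FPKM in OC and 2.77 to 3.44 FPKM in PAKG, mostly through Cebpa (0.70, adjusted p = 0.0374). Adipoq, Fabp4, Cidec and Lep were at 0.36, 0.58, 0.25 and 0.2 FPKM in OC 3, the OC library with the lowest osteocalcin, and at 0.04 FPKM or less in the other 5 libraries. Without OC 3 the log2 difference was 4.22 for Bglap and 3.77 for Bglap2. Myoblast markers (0.62 to 0.74 and 0.82 to 0.89 FPKM) and endothelial markers (0.03 and 0.05 to 0.07 FPKM) were low in both.

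The profile of the summed copies over the 6 libraries was set beside 9180 other genes whose mean was 2 FPKM or more, as a description over libraries that share the same grouping. By the root mean square distance between profiles on the log2 scale, each centred on its own mean, the nearest were Tmod1 (0.393), Phospho1 (0.760), Panx3 (0.790), Matn4 (0.902), Fgd3 (0.999), Wnt4 (1.03), Col2a1 (1.07) and Fgfr3 (1.08). Bglap and Bglap2 themselves were at 0.113 and 0.099 from their sum. By Pearson's r the nearest were B3gnt9, Matn4, Jph2, Sparc, Plcd3, Col8a2, Emilin1 and Wnt10b, and 76 genes had an r of 0.99 or more, so that r set few genes apart. B3gnt9, at the top with 0.999, differed by only 0.28 on the log2 scale. Matn4 was the 1 gene in both lists of 8. Between Bglap and Bglap2 r was 0.999, over copies that share fragments.

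Over all genes, 109 were called higher and 73 lower in PAKG. The FPKM totals were 295863.6 to 325818.2 in OC and 289675.9 to 310581.7 in PAKG, and the depth estimated from the smallest values of short genes was about 32200000 to 37700000 fragments in OC and 33000000 to 41800000 in PAKG. The first principal component (43.9% of the variance) separated the groups, and the second (25.1%) set the libraries with replicate number 2 of both groups apart from the rest. Without these 2 libraries the log2 difference was 4.46 for Bglap, 4.08 for Bglap2 and 4.27 for the sum (limma adjusted p = 0.000671, 0.000888 and 0.000837), and the share of Bglap was 7.41 points higher in PAKG.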

How the data were processed

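Poly(A) RNA was read from stranded TruSeq libraries of 6 samples of MC3T3-E1 cells, 3 per group. Per the labels and the study's methods, the authors trimmed reads with cutadapt, checked them with FastQC, mapped them to GRCm38 with HISAT2 and estimated transcripts with StringTie; their versions and the read length were not given in the sources used. The deposited values are FPKM per gene, rounded to 2 decimals. StringTie divides fragments that fit several transcripts, which affects near-identical copies. The study's methods name DESeq2, which needs counts and was therefore not used here.

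The 12590 genes whose mean reached 0.5 FPKM were fitted with limma 3.58.1 in R 4.3.3 (lmFit, eBayes with trend) on log2(FPKM + 0.1), so that fold changes of low genes are understated. Tests were 2-sided, and p-values were adjusted by Benjamini-Hochberg over the whole table. A call needed an adjusted p below 0.05 together with a change of 2-fold or more. Bglap3 was taken from a fit without filter, and the sum replaced the copies in a fit over 12589 genes. Exact permutation tests used the 6 libraries (scipy 1.17.1).

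Depth was estimated from the smallest FPKM steps of 3679 short genes with 1 transcript; whole reads were not recovered, so fragment numbers are estimates and no counting intervals are given. GENCODE M21 (GRCm38) held 99.76% of the gene IDs and gave transcripts and positions. The lengths, sequence windows and fragment numbers of the copies use the shortest coding transcript of each. Promoters came from RefSeq (GRCm38.p6).

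The members, lists, motifs and tests were chosen with earlier results of these data known. Named were all 3 copies, every tested neighbour, in each list up to 8 called genes and the 6 others with the highest mean, and the 8 genes nearest to the sum by each measure. The libraries carry replicate numbers 1 to 3 in both groups, from the labels; deviations from the group means correlated with r = 0.240, 0.430 and 0.192 between libraries of the same number and -0.312 to 0.138 otherwise, so the numbers were treated as pairs in an alternative fit with a replicate block. Other alternatives were the pseudocount, the filter, the scaling, the trend, a test against a fold change of 2, weighting the sum by length, and leaving out each library. The alternative without replicate 2 of both groups was chosen after seeing the data.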

Additional observations from a re-analysis of the deposited data

How the results depend on the processing

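The rise of Bglap, Bglap2 and their sum kept its direction and its call under every alternative run (16, 16 and 18), and Bglap3 was uncalled in all 14. The log2 difference ranged from 3.46 to 4.50 for Bglap (adjusted p 9.48e-06 to 0.000671, limma), from 3.42 to 4.10 for Bglap2 (1.75e-05 to 0.000888), from 0.15 to 2.12 for Bglap3 (0.0815 to 1) and from 3.76 to 4.29 for the sum (1.34e-05 to 0.000837). The wide range for Bglap3 follows from the pseudocount, with 0.15 at 1 FPKM and 2.12 at 0.01 FPKM. With 1 library, or both libraries of replicate number 2, left out, the ranges were 4.22 to 4.49, 3.77 to 4.10, 0.65 to 1.11 and 3.97 to 4.29, and the share of Bglap was 7.41 to 8.51 points higher in PAKG. With the replicate block the differences stayed 4.36, 3.96, 0.91 and 4.15 (adjusted p = 0.000268, 0.000370, 0.118 and 0.000292), 202 genes were called, and the block changed no call among the copies, their sum and the neighbours.

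The 182 called genes became 90 (62 higher, 28 lower) with a pseudocount of 1, and 21 (17 higher, 4 lower) when limma's treat tested against a fold change of 2. With treat, 0 promoter factors and 4 genes of the mature osteoblast list were called, against 2 and 9, which follows from the stricter null of that test. With 1 library left out, 168 to 225 genes were called. The median of all genes moved from -0.03 to 0.01 with a common total and to -0.002 with median-ratio scaling. Depth limits Bglap3, and the split between copies in OC.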
